A study of Homo sapiens with 75 samples.

Results

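The genes described here are 35 human genes of the hypoxia response and of glycolysis, followed in mantle cell lymphoma lines after treatment with antibodies against CD20. Their members are HIF1A and 4 genes that regulate it or act beside it (EGLN1, EGLN3, KDM3A and MXI1), 10 targets of the hypoxia-inducible factor (HIF), 8 genes of glucose entry and fuel choice, and 12 genes of the glycolytic steps. They were chosen by symbol: every probe set that the array's annotation assigns to 1 of these symbols alone was taken. This gave 75 of 54675 probe sets, for 34 of the 35 genes. CA9 had no probe set under its own name in the annotation used. Of the 75 probe sets, 65, from 34 genes, passed a filter on low values, and 33 genes were tested through their brightest probe set, among 13814 genes in all. P4HA2 was the gene left: its brightest probe set lay under the filter, and its single probe set past it, at a mean intensity of 3.58 to 6.27 over the 5 treatments, passed the test in none of the 8 comparisons of treatments with a control or between GA101 and rituximab.

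The study covered 5 cell lines grown from mantle cell lymphoma, a B cell cancer: REC-1, JEKO-1, Z138, HBL-2 and GRANTA-519. Each line received GA101 (obinutuzumab) at 10 µg/ml, Rituximab at 10 µg/ml, both together (10 µg/ml of each, so a higher total dose), an Isotype-control antibody, or PBS-control, which is buffer alone. Each of the 25 groups has 3 arrays, 75 in all. The labels name no oxygen level, treatment time or isotype concentration, and do not say that replicates came from separate cultures, so p-values measure the spread between these arrays, which may be technical. Each line is 1 established line, so a difference between lines is a difference between these 5 cultures and not between patients.

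HIF is a transcription factor made of an oxygen-sensitive alpha subunit, such as the HIF1A product, and a stable beta subunit. When oxygen is present, prolyl hydroxylases of the EGLN family mark the alpha subunit for destruction; when oxygen is short it accumulates and switches on genes for glucose uptake, glycolysis, blood vessel growth and adaptation. The alpha subunit is controlled mostly as protein, which these arrays did not measure.

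The arrays were alike in mean intensity and replicate correlation, but not in every measure of quality. The log2 ratio of 3′ to 5′ signal ran from -0.05 to 0.20 for GAPDH and from 0.62 to 1.32 for ACTB. For ACTB the median was 1.07 with PBS, 0.98 with the isotype antibody and 0.89 to 0.92 with antibodies against CD20. In GRANTA-519 ACTB was at 1.04, 0.78 and 0.93 on isotype arrays and 0.66, 0.66 and 0.84 on PBS arrays. Whether this bears on the changes was not tested. The deposited intensities had a mean of 171.98 to 172.01 on every array and a median of 11.06 to 17.42, with 4.08% to 8.87% of probe sets at 0. Replicate arrays correlated at r = 0.9483 to 0.9683 on the log2 scale over the 26555 probe sets past the filter, and no pair of arrays was identical. The B cell markers MS4A1 (the gene of CD20), CD79A, CD79B and PAX5 were above the filter in each line, as was CCND1, whose activation defines most mantle cell lymphomas, at 988 in HBL-2 and 4760 to 5710 in the other 4 lines. CD5, usually present on this lymphoma, was at 28.8 in REC-1 and 6.64 to 8.19 in the others, below the median probe set at 11.7. Markers of T, myeloid, erythroid, epithelial and fibroblast cells overlapped between the treatments; the summed intensity of the 6 T cell markers, for example, was 29 to 153 on the isotype arrays and 24.2 to 139 on the PBS arrays.

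Against PBS, the isotype antibody lowered 4 of the 33 tested genes over the 5 lines and raised none. These were ADM, which encodes the vasodilator peptide adrenomedullin, DDIT4, an inhibitor of mTORC1 signalling induced by stress, ANKRD37, a small ankyrin-repeat protein and HIF target, and VEGFA, the main growth factor of blood vessels. All 4 belong to the HIF targets, and no regulator, glucose-entry gene or glycolytic step passed. Over all genes tested, 4.32% were lower and 6.49% changed in either direction by the same test (limma, adjusted p under 0.05). The over-line log2 changes were -0.47 for ADM (SE 0.10, adjusted p = 0.0012), -0.40 for DDIT4 (SE 0.080, adjusted p = 0.00036), -0.39 for ANKRD37 (SE 0.067, adjusted p = 2.3e-05) and -0.15 for VEGFA (SE 0.045, adjusted p = 0.029), all by limma. In RNA from whole cultures, less of a transcript in every cell and fewer cells that hold much of it cannot be told apart. The median change was 0.00 over the 33 genes and -0.006 over all genes.

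The fall was largest in GRANTA-519. There ADM had intensities of 80.2, 50.3 and 69.5 on the PBS arrays and 21.3, 26.4 and 19 on the isotype arrays. DDIT4 stood at 905, 789 and 836 with PBS and at 282, 310 and 272 with the isotype antibody. ANKRD37 read 295, 275 and 273 with PBS and 122, 112 and 122 with the isotype antibody. For each of these genes the 3 isotype arrays lay below the 3 PBS arrays with no overlap, by 2.37-fold (ANKRD37) to 2.97-fold (ADM).

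KDM3A, a histone demethylase that HIF induces, and VEGFA followed at a smaller size. KDM3A was at 377, 365 and 423 with PBS and at 242, 241 and 236 with the isotype antibody, and VEGFA at 488, 422 and 470 against 313, 359 and 361. In the test within GRANTA-519 the log2 changes were -1.57 for ADM, -1.55 for DDIT4, -1.24 for ANKRD37, -0.69 for KDM3A and -0.42 for VEGFA. Their limma adjusted p-values were 5.7e-06, 1.7e-08, 4.1e-08, 6.4e-06 and 0.016. The VEGFA call was lost when its probe sets were averaged (-0.22, limma adjusted p = 0.53) and in 3 of the 75 fits that each leave out 1 array. In all 5 of 33 genes (15.2%) fell in this line, where 0.825% of all genes changed and 0.565% fell. Ordered by p among 13814 genes, DDIT4 was at rank 5, ANKRD37 at 7, ADM at 11, KDM3A at 13 and VEGFA at 78.

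In the other 4 lines none of the 33 genes passed for isotype against PBS, where 2.15% (Z138), 1.27% (HBL-2), 2.06% (JEKO-1) and 0.456% (REC-1) of all genes did. Limma's moderated F test over the 5 lines found that the isotype response differed between lines for 4 of 33 genes, against 0.659% of all genes: DDIT4 (adjusted p = 0.00011), ANKRD37 (0.00036), KDM3A (0.0012) and ADM (0.0042). Without the GRANTA-519 arrays none of the 4 over-line calls was kept (limma on the other 60 arrays): ADM was at -0.19 (adjusted p = 0.089), ANKRD37 at -0.18 (0.083), DDIT4 at -0.11 (0.48) and VEGFA at -0.08 (0.43). The 1 member called there was another HIF target, BNIP3L, a receptor for the removal of mitochondria, which was higher by 0.15 (0.020). Of all genes, 6.07% were called there. The other 2 VEGFA probe sets past the filter gave 0.02 and 0.07 over all lines, against -0.15 for the brightest and -0.02 for the mean of all 3, and the over-line VEGFA call was lost without HBL-2 (-0.13, adjusted p = 0.15 by limma) and in 7 of the 75 fits that each leave out 1 array.

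In GRANTA-519 the isotype arrays were low against every other treatment and not only against PBS. For 9 of 33 genes the 3 isotype arrays lay below all 12 other arrays of the line: ADM, ANKRD37, DDIT4, VEGFA and P4HA1 (a subunit of the collagen prolyl hydroxylase) among the HIF targets, KDM3A among the regulators, the glucose transporters SLC2A1 and SLC2A3, and the aldolase ALDOC. The same held for 2.59% of all genes in that line. In the other lines the isotype arrays lay below all others for 3 members in Z138 (ADM, BNIP3 and HIF1A; 3.97% of all genes), 1 in JEKO-1 (ANKRD37; 2.41%), and none in HBL-2 (2.03%) or REC-1 (0.869%). These counts were chosen after the values were seen. Median intensities of the isotype arrays overlapped those of the PBS arrays, at 11.61 to 15.85 against 11.17 to 17.42.

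**Figure D1:**
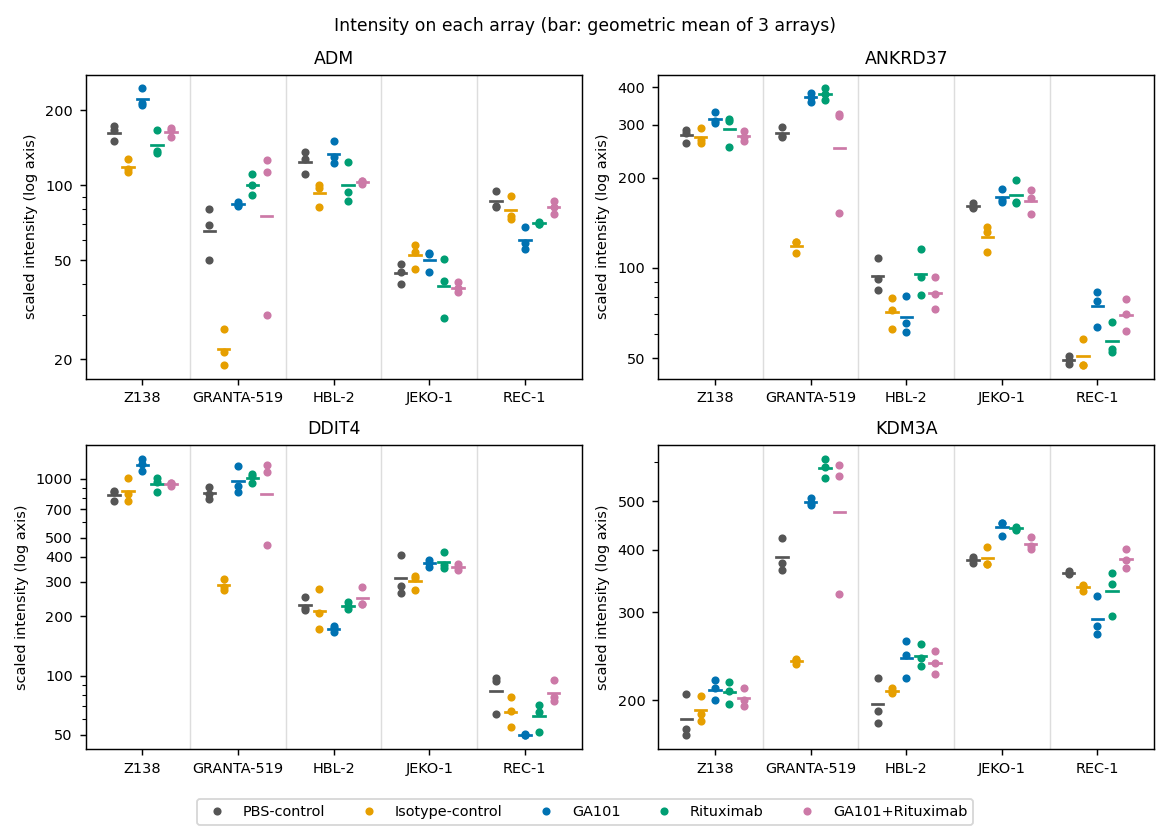
Scaled intensity (log axis) of ADM, ANKRD37, DDIT4 and KDM3A on each of the 75 arrays, by line and treatment; each dot is 1 array and each bar the geometric mean of 3 arrays. In GRANTA-519 the isotype arrays lie below the PBS arrays in all 4 panels (ADM 19 to 26.4 against 50.3 to 80.2), and 1 of the 3 arrays of the combination lies near them.

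The upstream sequences of the 4 genes with the largest fall are given because HIF binds a core written RCGTG, here searched as ACGTG and GCGTG on both strands. They are the 250 bases before the first listed transcription start in RefSeq, build GRCh38.p14, 5′ to 3′ on the gene's own strand (plus for all 4), with every core match in capitals: ADM at chr11:10304823-10305072, ANKRD37 at chr4:185396591-185396840, DDIT4 at chr10:72273674-72273923 and KDM3A at chr2:86441121-86441370.
ADM: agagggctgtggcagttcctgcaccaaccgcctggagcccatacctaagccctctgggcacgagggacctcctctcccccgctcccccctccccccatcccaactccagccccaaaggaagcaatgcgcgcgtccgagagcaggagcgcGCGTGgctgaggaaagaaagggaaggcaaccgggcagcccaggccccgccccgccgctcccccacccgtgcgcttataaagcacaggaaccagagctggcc
ANKRD37: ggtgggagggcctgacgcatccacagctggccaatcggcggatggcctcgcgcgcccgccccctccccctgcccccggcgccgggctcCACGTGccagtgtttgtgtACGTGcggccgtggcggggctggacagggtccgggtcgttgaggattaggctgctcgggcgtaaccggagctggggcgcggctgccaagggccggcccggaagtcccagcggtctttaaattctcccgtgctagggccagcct
DDIT4: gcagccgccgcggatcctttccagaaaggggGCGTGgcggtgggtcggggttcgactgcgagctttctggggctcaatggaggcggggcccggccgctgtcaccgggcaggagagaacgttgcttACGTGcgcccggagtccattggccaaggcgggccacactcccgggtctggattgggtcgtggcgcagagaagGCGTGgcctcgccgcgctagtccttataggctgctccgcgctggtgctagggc
KDM3A: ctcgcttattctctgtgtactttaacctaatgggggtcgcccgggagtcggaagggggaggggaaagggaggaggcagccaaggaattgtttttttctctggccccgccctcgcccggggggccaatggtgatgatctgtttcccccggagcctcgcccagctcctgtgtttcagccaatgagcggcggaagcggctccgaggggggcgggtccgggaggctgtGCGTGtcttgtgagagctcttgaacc

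ADM held 1 match, starting 101 bases before the start site, and KDM3A 1, at 26 bases. DDIT4 held 3, at 219, 125 and 53 bases. ANKRD37 held 3, at 162, 161 and 143 bases, of which the first and second are the same palindrome, CACGTG, read on both strands. Over the 31 members present in the set of RefSeq promoters used, 21 (67.7%) held a core in this window, against 43.1% of 27305 promoters. Of the members, 4 held CACGTG, against 6.5% of all promoters of the same length. Such letters are common, and a match is a description of the sequence, not evidence that HIF was bound.

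With GA101 or rituximab alone, ADM, DDIT4 and KDM3A in GRANTA-519 were near or above their PBS level. ADM there read 85.4, 83.4 and 82.4 with GA101 and 111, 91.4 and 99.8 with rituximab. DDIT4 read 921, 1160 and 851 with GA101 and 1030, 1060 and 947 with rituximab. KDM3A read 496, 492 and 507 with GA101 and 608, 556 and 585 with rituximab, above its 3 PBS arrays with no overlap.

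Against the isotype arrays, 8 of 33 genes rose with GA101 in this line (3.06% of all genes changed), 15 with rituximab (4.23%) and 8 with the combination (2.27%), and none fell. The median changes of the 33 genes were 0.36, 0.44 and 0.33, against 0.087, 0.071 and 0.057 over all genes. Against PBS the counts in the same line were 0 (0.492% of all genes), 2 (1.34%) and 0 (0.376%). The 2 were KDM3A at 0.59 (limma adjusted p = 2.6e-04) and P4HA1 at 0.39 (0.011), both with rituximab. The antibody comparisons share their isotype arrays, so the low isotype values enter all 3.

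The 15 genes that rose with rituximab against isotype in GRANTA-519 span the roles. They hold 6 of the 8 HIF targets tested: ADM, DDIT4, ANKRD37, VEGFA, P4HA1 and BNIP3L. They hold the regulators KDM3A, EGLN1 and EGLN3, the last 2 being the oxygen-sensing hydroxylases that HIF itself induces. The rest were SLC2A1, HK2 (hexokinase, the first step of glucose use), PFKFB3 and PFKFB4, which make and break down the activator of phosphofructokinase, PDK1, which turns pyruvate away from mitochondria, and ALDOC. EGLN1 illustrates the size, at 270, 294 and 259 on the isotype arrays and 456, 391 and 442 with rituximab (log2 change 0.65, SE 0.12, limma adjusted p = 4.8e-04). PFKFB4 was at the threshold (limma adjusted p = 0.050, lost in 57 of the 75 fits that leave out 1 array), and EGLN3 overlapped between the groups, with intensities of 2 to 17.1. After quantile normalization ALDOC, BNIP3L, EGLN3, PDK1, PFKFB4 and SLC2A1 were lost, which leaves 9 of the 15. With probe sets averaged HK2 was at 0.26 (adjusted p = 0.22 by limma) in place of 0.49, and BNIP3L and PDK1 were lost too; with an offset of 16 PFKFB3 was at 0.42 (0.076) in place of 0.90 and EGLN3 at 0.39 (0.19) in place of 1.27. Leaving out 1 array ended the call in 5 of 75 fits for SLC2A1, 4 for PDK1, 3 each for HK2, BNIP3L, ALDOC and EGLN3, and 1 for PFKFB3; without isotype replicate 3 EGLN3 was at 0.50 and PFKFB3 at 0.59. ADM, ANKRD37, DDIT4, EGLN1, KDM3A, P4HA1 and VEGFA kept the call under each of these.

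1 array of the combination in GRANTA-519 stood apart in these genes. Replicate 3 read 30.1 for ADM, where the others read 126 and 113. It read 462 for DDIT4 against 1170 and 1080, 153 for ANKRD37 against 322 and 325, and 326 for KDM3A against 592 and 561. All 4 values are nearer to the isotype arrays than to the other combination arrays or fall between them, while over the brightest probe sets of the 13814 genes alone this array correlated with the others at r = 0.9685 to 0.97, and they with each other at 0.9693. Without it the combination against isotype change in GRANTA-519 was 2.44 in place of 1.77 for ADM, 1.97 in place of 1.54 for DDIT4, 1.45 in place of 1.09 for ANKRD37 and 1.26 in place of 0.99 for KDM3A; over all lines ADM moved from 0.40 to 0.53. This array was singled out after the values were seen.

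Over the 5 lines, the antibodies raised more members than they lowered. Against isotype, GA101 raised 9 of 33 genes and lowered 1, where 12.5% of all genes rose and 5.79% fell (18.3% in all). Rituximab also raised 9 and lowered 1 (13.8% and 6.96% of all genes, 20.8% in all), and the combination raised 8 and lowered 1 (11.4% and 6.04%, 17.5% in all). In each case the gene that fell was PGK1, which makes ATP in glycolysis. Against PBS, GA101 raised 6 and lowered none (7.3% and 3.33%, 10.6% in all), rituximab raised 6 and lowered 1 (8.32% and 3.89%, 12.2% in all), and the combination raised 3 and lowered 1 (5.72% and 2.86%, 8.58% in all). The balance over all genes depends on the scaling: of all genes called with GA101, rituximab and the combination, 68.4%, 66.5% and 65.4% were higher against isotype and 68.7%, 68.1% and 66.7% against PBS, but 51%, 53.4% and 52.1%, and 42.7%, 48.5% and 48%, after quantile normalization.

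Medians over the 33 genes were 0.08, 0.06 and 0.03 against isotype and 0.04, 0.06 and 0.04 against PBS; over all genes they were 0.025, 0.017 and 0.02, and 0.018, 0.011 and 0.013. The shares called among the members, 12.1% to 30.3%, were above those of all genes in each of these comparisons, but not under every alternative. Without GRANTA-519, 5 of 33 members passed for GA101 against isotype, where 16.5% of all genes did. Without Z138, 3 of 33 passed for rituximab against PBS (10% of all genes), and after quantile normalization 3 of 33, or 9.09%, passed for GA101 against PBS (9.47%). By the brightest probe sets, only HIF1A, KDM3A and MXI1 passed for all 3 antibody treatments against both controls.

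**Figure D2:**
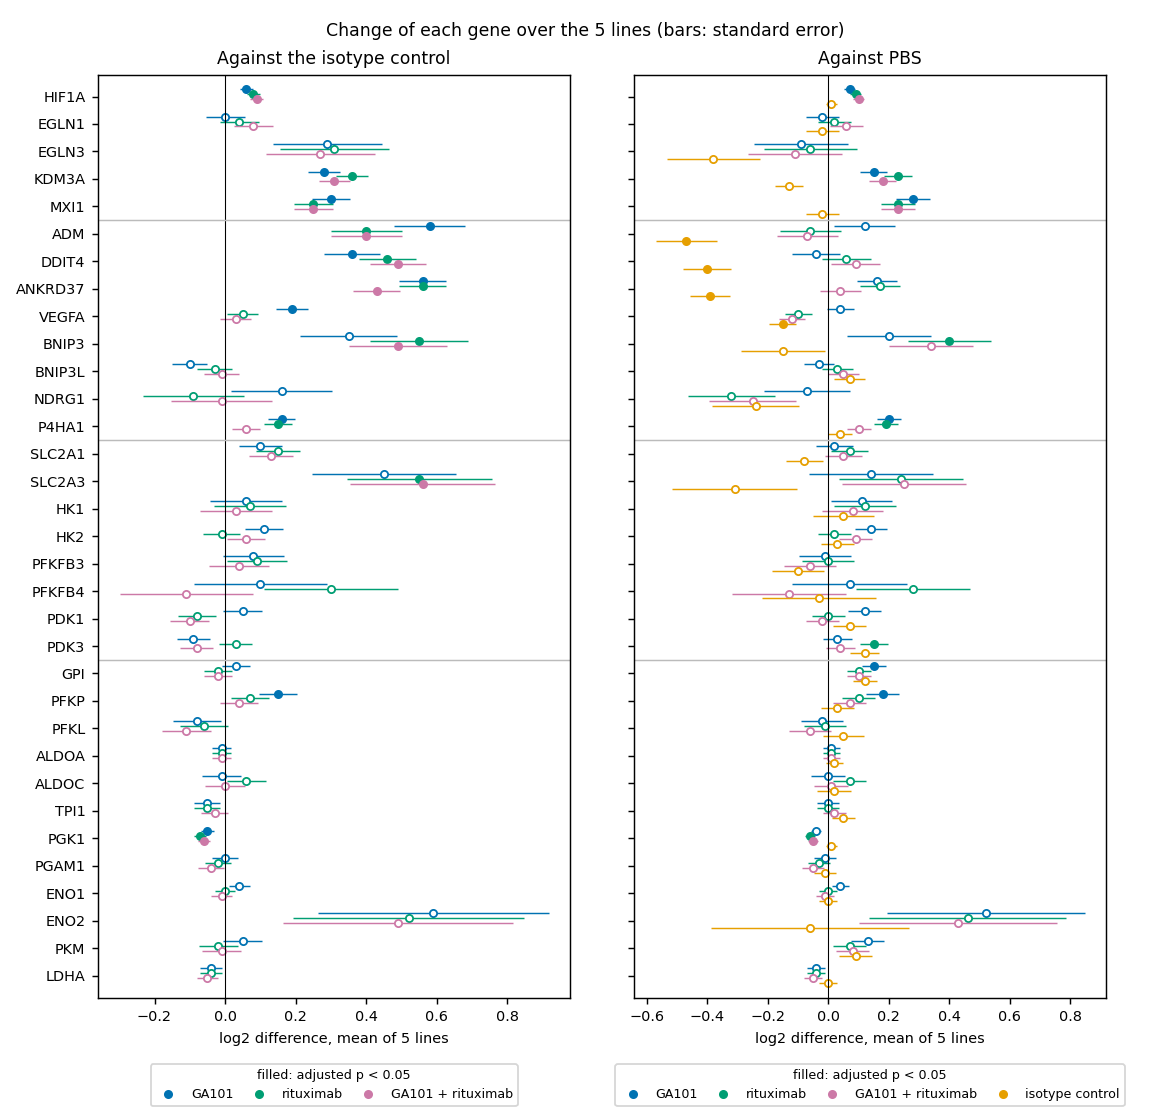
Log2 difference of each tested gene, averaged with equal weight over the 5 lines, against the isotype control (left) and against PBS (right); bars are standard errors and filled points have an adjusted p under 0.05. Genes are ordered by role, regulators at the top and glycolytic steps at the bottom; ADM, DDIT4 and ANKRD37 are filled on the left for all 3 treatments and on the right only for the isotype control.

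Among the 5 regulators, KDM3A rose by 0.28 (GA101), 0.36 (rituximab) and 0.31 (combination) against isotype and by 0.15, 0.23 and 0.18 against PBS. MXI1, a HIF target that opposes MYC, rose by 0.30, 0.25 and 0.25 against isotype and by 0.28, 0.23 and 0.23 against PBS. HIF1A rose by 0.06, 0.08 and 0.09 against isotype and by 0.07, 0.09 and 0.10 against PBS. Limma adjusted p-values ran from 4.8e-09 (KDM3A, rituximab against isotype) to 0.022 (HIF1A, GA101 against isotype). With rituximab and the combination MXI1 depended on REC-1. Without that line its changes were 0.17 (0.066) and 0.15 (0.10) against isotype, and 0.16 (0.11) and 0.15 (0.18) against PBS. With GA101 MXI1 still passed without REC-1, at 0.27 against isotype (limma adjusted p = 0.0016) and 0.27 against PBS (0.0049). Without Z138, MXI1 with rituximab was at 0.13 (0.096) against isotype and 0.14 (0.080) against PBS. The smallest of the KDM3A changes, GA101 against PBS, passed in the full data and without REC-1 but not without any other line or after quantile normalization (0.12, 0.099 by limma), and was at 0.27 without REC-1. KDM3A with the combination against PBS was at 0.16 (0.055) without HBL-2. HIF1A with GA101 against isotype was at 0.05 (0.053) after quantile normalization. EGLN1 and EGLN3 did not pass over all lines by their brightest probe sets. EGLN3 was at 0.29, 0.31 and 0.27 against isotype with a standard error of 0.15. For rituximab, 1 of the other 2 EGLN1 probe sets passed against each control. Those 2 were at 0.11 to 0.18 against isotype and 0.13 to 0.21 against PBS, where the brightest was at 0.04 and 0.02.

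Among the 8 HIF targets, ADM, ANKRD37 and DDIT4 rose against isotype with each treatment. The changes were 0.58, 0.40 and 0.40 for ADM, 0.56, 0.56 and 0.43 for ANKRD37, and 0.36, 0.46 and 0.49 for DDIT4, in the order GA101, rituximab, combination. Against PBS none of the 3 passed, with ADM at 0.12, -0.06 and -0.07. VEGFA rose against isotype with GA101 alone (0.19, limma adjusted p = 0.0012), and P4HA1 with GA101 (0.16) and rituximab (0.15). P4HA1 also rose against PBS with both, by 0.20 and 0.19. BNIP3, a mitochondrial cell death and mitophagy protein, rose with rituximab (0.55) and the combination (0.49) against isotype and with rituximab against PBS (0.40). Its other probe set gave 0.31, -0.03 and 0.33 and passed in none; with both averaged the combination was at 0.23 (limma adjusted p = 0.32) and rituximab against PBS at 0.36 (0.088). BNIP3L and NDRG1, a stress-responsive growth regulator, passed in none of these, and NDRG1 was dim, with intensities of 8.33 to 31.2 over all 75 arrays.

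Much of this rested on single lines. By limma without GRANTA-519, the count for GA101 against isotype was 5 (16.5% of all genes) in place of 10, and 4 of the 5 were among the 10. Against isotype ADM was then at 0.06 with the combination (limma adjusted p = 0.67) and at -0.04 with rituximab (0.74). DDIT4 was at 0.01 with GA101 (0.94) and 0.12 with rituximab (0.31). P4HA1 against isotype was then at 0.08 with GA101 (0.21) and 0.03 with rituximab (0.71), VEGFA with GA101 at 0.09 (0.21), and KDM3A with GA101 at 0.09 (0.11) against isotype and 0.10 (0.065) against PBS. P4HA1 against isotype was also lost without Z138 (0.11 with GA101, adjusted p = 0.11 by limma; 0.13 with rituximab, 0.050), and VEGFA without JEKO-1 (0.13, 0.058). ANKRD37 passed with each treatment also without GRANTA-519, at 0.28, 0.29 and 0.27 in place of 0.56, 0.56 and 0.43. ADM with GA101 (0.25 in place of 0.58), DDIT4 with the combination (0.23 in place of 0.49) and KDM3A with rituximab (0.13 in place of 0.36) and the combination (0.14 in place of 0.31) also passed there at a smaller size, as did KDM3A with rituximab against PBS (0.15 in place of 0.23). Members that passed there with an antibody, but not over all 5 lines, were lower. Against isotype BNIP3L was at -0.20 with GA101 (limma adjusted p = 0.00036) and -0.14 with rituximab (0.011). PDK1 was at -0.20 with rituximab (0.0050) and -0.21 with the combination (0.0052). Against PBS, ADM was at -0.23 with rituximab (0.014). VEGFA, by its brightest probe set, was at -0.15 with rituximab (0.024) and -0.16 with the combination (0.020) against PBS. Other lines lowered the average: without HBL-2, P4HA1 against isotype was at 0.29 and 0.24, P4HA1 with GA101 against PBS at 0.32 and VEGFA with GA101 at 0.31; without JEKO-1, ADM was at 0.61 with rituximab and with the combination; and without REC-1, DDIT4 with GA101 was at 0.55. BNIP3 rested on HBL-2: without it the changes were 0.13 (0.084), 0.05 (0.63) and, against PBS, 0.10 (0.28), by limma. That last call was also lost without any line other than REC-1, and in 41 of the 75 fits that leave out 1 array. Without isotype replicate 1 of HBL-2 alone, BNIP3 with the combination was at 0.31.

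Of the 8 genes of glucose entry and fuel choice, by their brightest probe sets, 1 passed with rituximab and the combination against isotype. Another 1 passed with rituximab against PBS. SLC2A3, a high-affinity glucose transporter, was higher by 0.55 and 0.56 (limma adjusted p = 0.046 and 0.049). Each call was lost without any of the 4 lines other than REC-1 or without the filter. These calls were lost in 23 and 62 of the 75 fits that leave out 1 array. Without REC-1, where its mean intensity was 3.13, SLC2A3 rose with each treatment against both controls. In the order GA101, rituximab, combination, it was then at 0.87, 0.81 and 0.78 against isotype (limma adjusted p = 7.0e-10, 3.7e-09 and 1.3e-08). Against PBS it was at 0.61, 0.54 and 0.51 (limma adjusted p = 1.2e-05, 3.5e-05 and 0.00015). PDK3, a pyruvate dehydrogenase kinase, rose by 0.15 with rituximab against PBS (limma adjusted p = 0.024), but not without GRANTA-519 (0.13, adjusted p = 0.13) or Z138 (0.11, 0.25). The other 4 PDK3 probe sets ran from -0.17 to 0.14 and passed in none; the mean of its probe sets was 0.02 (0.86) and quantile normalization gave 0.12 (0.12), by limma. SLC2A1, HK1, HK2, PFKFB3, PFKFB4 and PDK1 did not pass over all lines; HK2 was at 0.11, -0.01 and 0.06 against isotype, an average over lines that moved in opposite directions.

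The 12 glycolytic steps were nearly flat. PFKP, the platelet form of phosphofructokinase, rose with GA101 by 0.15 against isotype and 0.18 against PBS, and GPI, which makes fructose 6-phosphate, rose by 0.15 with GA101 against PBS. Without REC-1 PFKP was at 0.06 (adjusted p = 0.59) and 0.14 (0.18), and without HBL-2 GPI was at 0.12 (0.087), by limma; quantile normalization ended all 3 calls. PFKP against isotype was also lost without Z138 or GRANTA-519, and in 22 of the 75 fits that leave out 1 array. PGK1 fell by 0.05, 0.07 and 0.06 against isotype and by 0.06 (rituximab) and 0.05 (combination) against PBS, on a log2 scale where its standard error was 0.017. The PGK1 change is small and its probe sets did not move together: the other 5 ranged from -0.23 to 0.08 for rituximab against isotype, and all 5 of its calls were lost when arrays were quantile normalized. Leaving out 1 array ended its call in 15 of 75 fits for GA101 against isotype and in 20 for the combination against PBS. LDHA, which makes lactate, was at -0.04, -0.04 and -0.05 against isotype. ALDOA, ALDOC, TPI1, PGAM1, ENO1, PKM and PFKL did not pass in any of these comparisons, and ENO2 did not pass either, at 0.59, 0.52 and 0.49 with a standard error of 0.33 and intensities of 0 to 24.1 outside HBL-2.

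The number of members that changed differed from line to line outside GRANTA-519. In Z138 GA101 changed 6 of 33 genes against isotype, where 10.5% of all genes changed, rituximab 3 (12.6%) and the combination 3 (10.5%), and against PBS 2 (3.8%), 2 (4.14%) and 2 (2.49%). HBL-2 had 3 (5.74%), 3 (9.87%) and 5 (8.46%) against isotype and 1 (4.31%), 4 (7.5%) and 4 (7.22%) against PBS. JEKO-1 had the fewest, with 1 (7.19%), 1 (7.5%) and 0 (6.09%) against isotype and 2 (4.59%), 0 (3.97%) and 0 (3.87%) against PBS. REC-1 had 5 (11.7%), 3 (5.22%) and 2 (5.01%) against isotype and 6 (9.57%), 3 (4.58%) and 4 (3.59%) against PBS. The members' shares in these 4 lines, 0% to 18.2%, lay on both sides of those of all genes.

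HIF1A moved in Z138. There the 3 PBS arrays read 1160, 1170 and 1150 and the 3 isotype arrays 1130, 1100 and 1140. GA101 gave 1460, 1410 and 1410, rituximab 1510, 1480 and 1410, and the combination 1460, 1390 and 1440. Each of the 9 antibody arrays lay above each of the 6 control arrays. The log2 changes in Z138 were 0.34, 0.38 and 0.35 against isotype and 0.30, 0.34 and 0.30 against PBS, with a standard error of 0.041 and limma adjusted p-values of 3.0e-10 to 7.4e-07.

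In JEKO-1 the 9 antibody arrays of HIF1A also lay above the 6 controls, at 1190 to 1260 against 1110 to 1160, but none of its 6 tests passed in that line. In GRANTA-519, HBL-2 and REC-1 the groups overlapped. By limma's F test the response differed between lines for GA101 (adjusted p = 1.8e-07) and rituximab (6.3e-08). Without Z138 the over-line changes of HIF1A were -0.01 (GA101), 0.00 (rituximab) and 0.02 (combination) against isotype and 0.01, 0.03 and 0.05 against PBS, and none passed. The GA101 calls of HIF1A over all lines were also lost without JEKO-1 (0.05, adjusted p = 0.13 against isotype; 0.06, 0.074 against PBS; limma). Over the PBS arrays its level was highest in GRANTA-519, 2.34-fold above JEKO-1, where it was lowest. REC-1 came next, with GRANTA-519 higher by 0.25 on the log2 scale (limma adjusted p = 3.6e-07).

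MXI1 rose in Z138 and REC-1. In REC-1 it read 155, 177 and 189 with PBS, 150, 163 and 179 with the isotype antibody, 220, 212 and 224 with GA101, 240, 236 and 257 with rituximab, and 254, 253 and 265 with the combination. All 9 antibody arrays lay above all 6 controls. Changes against isotype were 0.42, 0.58 and 0.65 in REC-1 and 0.55, 0.72 and 0.55 in Z138, with limma adjusted p-values of 1.6e-05 to 0.015. In GRANTA-519 and HBL-2 none passed, with -0.24 and -0.15 for rituximab, and the rituximab response differed between lines (adjusted p = 1.6e-05 by limma's F test).

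HK2 moved in opposite directions in HBL-2 and REC-1. In HBL-2 it read 1070, 888 and 725 with PBS and 1030, 943 and 951 with the isotype antibody, against 639, 490 and 600 with rituximab and 644, 582 and 671 with the combination. The 6 arrays that received rituximab were below all 6 controls, and GA101 alone gave 786, 749 and 822. The log2 changes were -0.77 (rituximab) and -0.63 (combination) against isotype and -0.62 and -0.48 against PBS, the last of which was lost without PBS replicate 1, while GA101 was at -0.31 and did not pass.

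In REC-1 HK2 read 715, 611 and 725 with PBS and 863, 702 and 579 with the isotype antibody. It read 1170, 970 and 1090 with GA101, 967, 968 and 855 with rituximab, and 903, 1000 and 1050 with the combination. Every antibody array exceeded every PBS array, and 1 rituximab array lay under the highest isotype array. The changes were 0.66, 0.45 and 0.53 against PBS and 0.61, 0.40 and 0.48 against isotype (limma adjusted p = 6.2e-05 to 0.035). With its probe sets averaged, HK2 in REC-1 was at 0.25 (0.28, rituximab) and 0.18 (0.54, combination) against isotype and 0.33 (0.094, combination) against PBS by limma, so these 3 calls depend on the probe set. Without isotype replicate 3 rituximab against isotype was at 0.25, and its call was lost in 4 of 75 fits. The F tests between lines gave 0.00014 for GA101 and 1.9e-07 for rituximab.

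By its brightest probe set, VEGFA fell in HBL-2 and rose with GA101 in JEKO-1. In HBL-2 the PBS arrays read 497, 459 and 508 and the isotype arrays 399, 404 and 471. GA101 gave 318 to 353, rituximab 347, 342 and 369, and the combination 316, 320 and 283, so that all 9 antibody arrays were below all 6 controls. The changes against PBS were -0.52, -0.47 and -0.67 (limma adjusted p = 4.0e-04, 6.5e-04 and 1.0e-06). In JEKO-1 the GA101 arrays, at 214, 232 and 220, were above the isotype arrays, at 165, 164 and 167, by 0.42 (limma adjusted p = 0.0029), and by 0.32 above PBS (0.048, lost in 42 of the 75 fits that leave out 1 array). With the 3 VEGFA probe sets averaged none of these calls was kept: HBL-2 was at -0.08 (0.88), -0.17 (0.49) and -0.21 (0.28) against PBS, and JEKO-1 with GA101 at 0.04 (0.95) against isotype and 0.15 (0.60) against PBS, by limma.

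**Figure D3:**
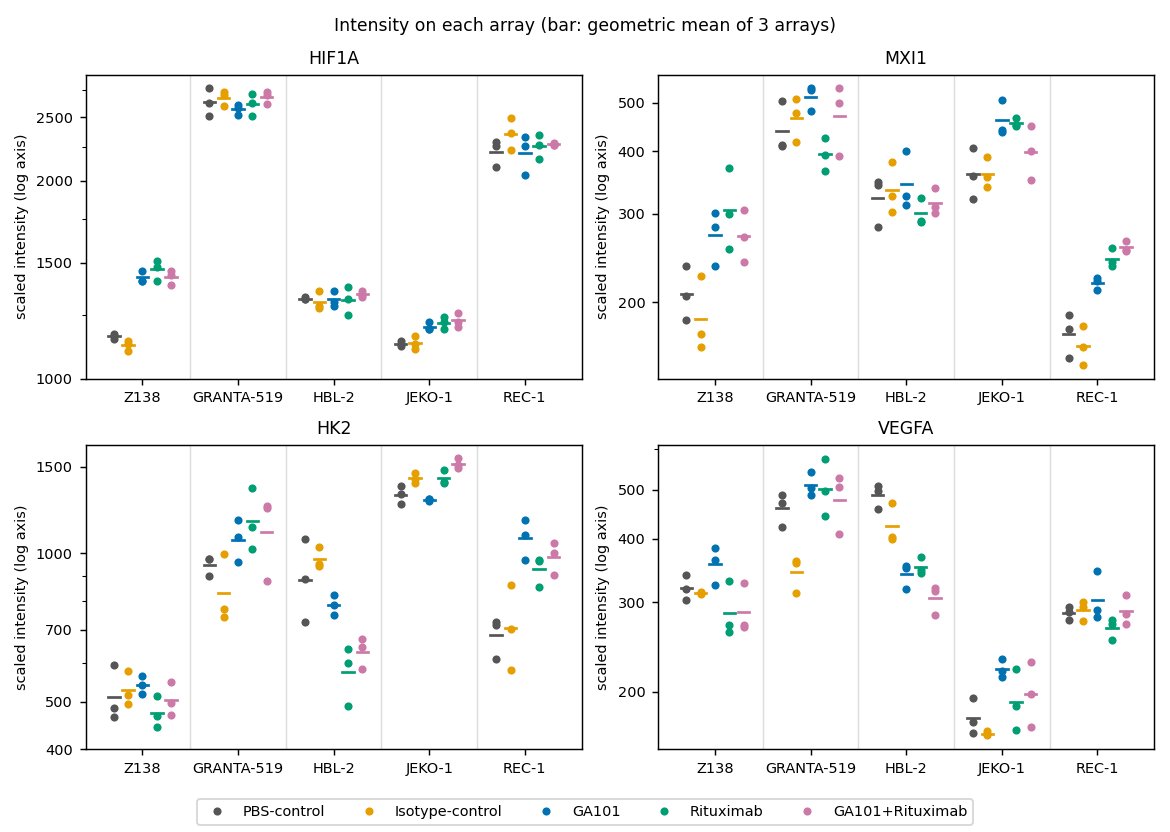
Scaled intensity (log axis) of HIF1A, MXI1, HK2 and VEGFA on each of the 75 arrays, by line and treatment; each dot is 1 array and each bar the geometric mean of 3 arrays. HIF1A separates antibody from control arrays in Z138 (1390 to 1510 against 1100 to 1170), HK2 is lower with rituximab in HBL-2 and higher with each antibody in REC-1, and VEGFA, by its brightest probe set, is lower with each antibody in HBL-2.

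Counted over all members, the 9 antibody arrays lay above the 6 controls for HIF1A, PFKFB3 and SLC2A3 in Z138 (2.23% of all genes), for HIF1A and SLC2A3 in JEKO-1 (2.57%), and for HK1, MXI1 and PFKP in REC-1 (2.11%). They lay below for VEGFA in HBL-2 (2.25%). No other member separated: the shares of all genes were 1.95% higher in HBL-2, 0.999% higher and 0.333% lower in GRANTA-519, and 0.854%, 0.666% and 1.74% lower in Z138, JEKO-1 and REC-1. SLC2A3 in Z138 was at 36, 36.9 and 35.1 with PBS and at 36.8, 35.7 and 28.4 with the isotype antibody, against 97.5, 92 and 80.1 with GA101, 58.5, 63.6 and 64.3 with rituximab, and 51.7, 70.6 and 80.4 with the combination. Of these, the GA101 against isotype change passed (1.42, SE 0.46, limma adjusted p = 0.034). That SLC2A3 call was lost without any of the 6 arrays it compares, without GRANTA-519, HBL-2 or JEKO-1, without the filter and after quantile normalization, with adjusted p-values of 0.050 to 0.12 by limma. These counts of separated arrays were chosen after the values were seen.

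Other single-line changes of HIF targets were fewer. In Z138, ADM rose with GA101 to 245, 213 and 211 from 127, 116 and 113 with the isotype antibody (0.91, limma adjusted p = 0.0039). Its mean on the PBS arrays of that line was 163, and against PBS it did not pass. P4HA1 in Z138 rose with GA101 by 0.38 against isotype and 0.42 against PBS. In Z138 BNIP3L fell by 0.49 with rituximab against isotype. BNIP3 in HBL-2 had intensities of 0 to 9.95 on the control arrays and 6.84 to 21 with an antibody, with changes of 1.58, 2.21 and 2.25 against isotype. 1 isotype array read 0 and was set to 1; without it the changes were 0.68 (limma adjusted p = 0.058), 1.31 and 1.35, so their size rests on that array. Values this close to the median probe set at 11.7 were not seen in the other 4 lines, where BNIP3 read 128 to 942.

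REC-1 gave changes in both directions with GA101. DDIT4 read 50, 50.2 and 49.7 against 63.6, 93.5 and 97.7 with PBS (-0.74, limma adjusted p = 0.0031), and KDM3A was lower by 0.31 on the log2 scale (0.038). ANKRD37, at 83.4, 77.7 and 63.6 with GA101 against 49.2, 50.7 and 47.8 with PBS, rose by 0.60 (0.0043). The KDM3A call was lost without the filter (0.053 by limma). PFKP rose by 0.36 against PBS (0.044, and 0.063 after quantile normalization) and by 0.51 against isotype (0.0022). SLC2A3 was lower by 1.75 against PBS, but between intensities of 0.98 to 1.97 and 1.93 to 7.97, which overlap and lie far below the median probe set.

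The remaining single-line calls whose arrays did not overlap were spread over 4 lines. In HBL-2, P4HA1 fell against isotype by 0.35 (GA101) and 0.36 (combination), PDK1 fell by 0.42 (rituximab) and 0.49 (combination) and, against PBS, by 0.41 (combination), and KDM3A rose with rituximab against PBS by 0.32. In JEKO-1, ANKRD37 rose with rituximab against isotype by 0.47 and P4HA1 with GA101 against PBS by 0.35. In REC-1, P4HA1 rose against PBS by 0.29 with rituximab and the combination, ANKRD37 by 0.50 with the combination, BNIP3L fell with GA101 against isotype by 0.32, and PGK1 fell with rituximab by 0.13. In Z138, TPI1 fell with GA101 against isotype by 0.26, and PFKFB4 was lower with the combination by 1.40 against isotype and 1.44 against PBS, at intensities of 2.83 to 19.3. Several of these were weak. Leaving out 1 array ended the call in 56 of 75 fits for PFKFB4 against PBS, in 50 for BNIP3L and in 28 for P4HA1 with the combination in REC-1, and with an offset of 16 PFKFB4 was at -0.45 (limma adjusted p = 0.15) and -0.46 (0.28). With the probe sets of each gene averaged, TPI1 was at -0.11 (0.60), PDK1 with rituximab at -0.34 (0.42) and PGK1 at -0.14 (0.74), by limma. Quantile normalization ended the calls of TPI1, PGK1, BNIP3L and ANKRD37, that of PDK1 against PBS, and those of P4HA1 in JEKO-1 (0.25, 0.17) and REC-1 (0.24, 0.15 with rituximab; 0.25, 0.13 with the combination), by limma. ANKRD37 in JEKO-1 and REC-1 and KDM3A in HBL-2 were lost without the filter.

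Over all 33 genes the response differed between lines for 14 with GA101 against isotype (14.2% of all genes) and 15 with rituximab against isotype (11.5%). For GA101 against rituximab it differed for 0 of 33 (3.63% of all genes). The isotype arrays of GRANTA-519 enter both comparisons against isotype.

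GA101 and rituximab, which bind CD20 in different ways and were given at the same dose, were not separated by these genes over the 5 lines. By limma 0 of 33 passed, with 4 at an unadjusted p under 0.05, where 2.24% of all genes passed. The largest difference, GA101 minus rituximab, was 0.25 for NDRG1 (95% interval -0.04 to 0.54). For VEGFA, at 0.14, the interval was 0.05 to 0.23 (limma adjusted p = 0.10), and for HK2, at 0.12, it was 0.01 to 0.22 (0.36). The difference was under 0.1 in size for 24 genes, and the 95% interval lay within 0.5 of 0 for 29, so a shared difference above 0.5 over the lines was outside the interval for most of these genes. Without GRANTA-519, 2 of 33 passed, where 2.61% of all genes did. ADM was then at 0.29 (limma adjusted p = 0.0069) and VEGFA at 0.17 (0.045).

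In single lines 1 difference between GA101 and rituximab passed: HK2 in HBL-2, by 0.46 (limma adjusted p = 0.026, where 1.82% of all genes passed). With the HK2 probe sets averaged it was at 0.25 (0.34), and the call was also lost without JEKO-1 (0.058) and in 3 of 75 fits that leave out 1 array, by limma. No member passed in Z138 (1.69% of all genes), GRANTA-519 (0.109%), JEKO-1 (0.485%) or REC-1 (3.15%). The combination differed from GA101 in VEGFA alone (-0.16, limma adjusted p = 0.048, where 1.44% of all genes passed); VEGFA's other 2 probe sets gave -0.05 and -0.04. The combination differed from rituximab in 0 of 33 genes, as in 0 of all 13814.

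Levels also differed between lines before any antibody was added. On the PBS arrays 31 of 33 genes differed between the 5 lines by limma's F test, where 81% of all genes did; NDRG1 (adjusted p = 0.97) and PGAM1 (0.38) did not pass. The median range over lines was 1.34 on the log2 scale, close to the 1.29 of all genes. HBL-2 had the highest level of 11 genes and GRANTA-519 of 10; REC-1 had the lowest of 12 and JEKO-1 of 9.

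BNIP3 read 845 ± 42.3 in JEKO-1, 431 ± 11.2 in Z138, 319 ± 19.6 in REC-1, 170 ± 18.4 in GRANTA-519 and 6.05 ± 3.52 in HBL-2 (mean ± SD, n = 3 arrays). In HBL-2 it lay below the median probe set at 11.7, so no fold is given for its range. Z138 and REC-1 did not differ beyond their spread (limma adjusted p = 0.24). PFKFB3 was at 217 ± 40.1 in JEKO-1 and 195 ± 30.2 in HBL-2, which did not differ (0.55), then 86 in Z138, 47.5 in REC-1 and 16 ± 3.8 in GRANTA-519. DDIT4 was at 843 ± 58.3 in GRANTA-519 and 830 ± 53.4 in Z138, which did not differ (0.93), and at 84.9 ± 18.6 in REC-1, a range of 10.1-fold. ANKRD37 had the same order of lines as DDIT4, from 281 ± 12.5 to 49.2 ± 1.4, a range of 5.71-fold.

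EGLN3 ran from 108 ± 8.0 in JEKO-1 to 10.4 ± 2.5 in GRANTA-519, and HK1, the housekeeping hexokinase, from 442 ± 8.3 in REC-1 to 61.6 ± 16.3 in Z138. SLC2A3 and ENO2, the neuronal enolase, were at 60.2 or less in every line. SLC2A3 was at 60.2 ± 5.4 in GRANTA-519 and 4.9 ± 3.0 in REC-1, and the 4 lines other than REC-1 were not separated except GRANTA-519 from JEKO-1. ENO2 was at 35.5 ± 9.2 in HBL-2 and at 9.11 or less in the other lines. At the other end, PGK1 and ALDOA ranged by 1.25-fold, LDHA by 1.16-fold and PGAM1 by 1.12-fold, while the dim NDRG1 ranged by 1.16-fold.

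**Figure D4:**
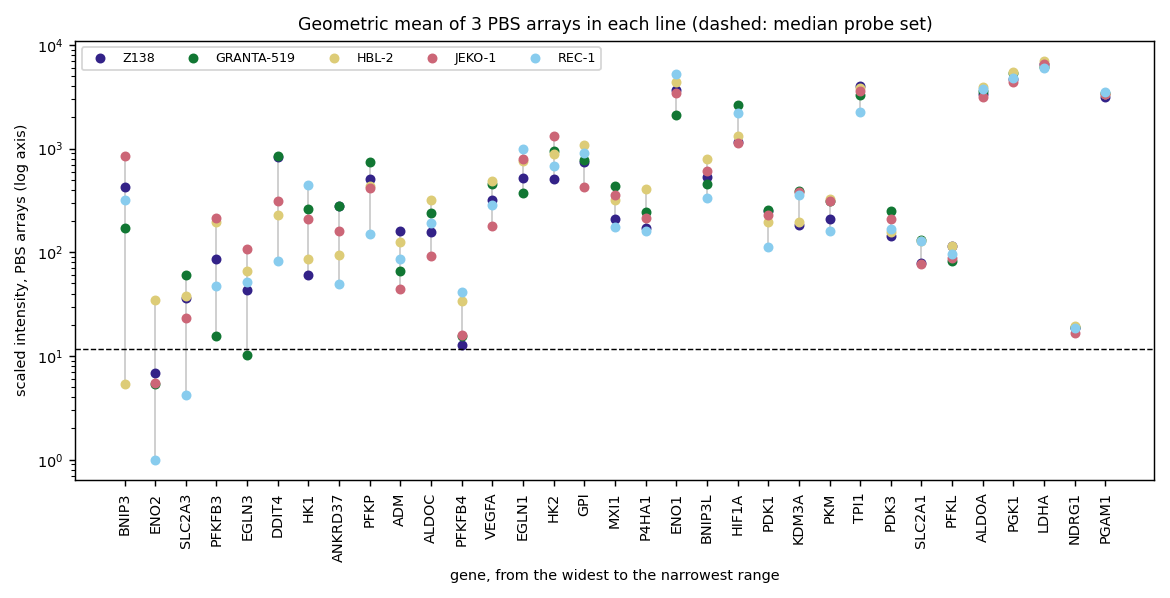
Scaled intensity (log axis) of the 33 tested genes on the PBS arrays, as the geometric mean of 3 arrays in each line, ordered by the range of these means, down to PGAM1 (1.12-fold); the dashed line is the median probe set at 11.7. BNIP3, ENO2, SLC2A3 and EGLN3 have at least 1 line below it, so their place in the order is uncertain. Levels of different genes come from different probes and cannot be set against each other.

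Other genes of the same pathways were read from lists that were also chosen with earlier results known. Of 21 further HIF targets tested, 0 rose and 2 fell with isotype against PBS, 5 rose and 1 fell with GA101 against isotype, 4 and 0 with rituximab, and 4 and 1 with the combination. The shares of all genes were 2.17% and 4.32% for isotype against PBS, and 12.5% and 5.79%, 13.8% and 6.96%, and 11.4% and 6.04% for the 3 treatments. HILPDA, a lipid droplet protein, rose by 0.38, 0.34 and 0.33 against isotype and by 0.19, 0.16 and 0.15 against PBS, and fell by 0.18 with the isotype antibody. BHLHE40, a circadian and stress repressor, rose by 0.16, 0.47 and 0.41 against isotype and was lower with GA101 than with rituximab by 0.32. In GRANTA-519 BHLHE40 (-0.64) and CXCR4 (-0.46), a chemokine receptor, also fell with the isotype antibody.

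Of 8 further genes of the HIF pathway tested, HIF1AN, an asparaginyl hydroxylase that restrains HIF, fell with the isotype antibody by 0.18, and 0 passed with GA101 or the combination against isotype. Rituximab raised 2, HIF1AN and CITED2, and lowered SIAH2 against isotype. Over all genes 6.49% passed for isotype against PBS, and 18.3% (GA101) and 17.5% (combination) against isotype. With rituximab 13.8% of all genes rose and 6.96% fell against isotype. Of 14 further glycolysis genes tested, 0 passed for isotype against PBS, and 1 each for GA101 (TIGAR, 0.12), rituximab and the combination against isotype (SLC2A5, a fructose transporter, -0.13 and -0.13), where 6.49%, 18.3%, 20.8% and 17.5% of all genes passed. Among 5 glucose-sensing genes, TXNIP, a thioredoxin-binding brake on glucose uptake, fell by 0.63 with the isotype antibody (limma adjusted p = 3.1e-15) and rose by 0.58, 0.40 and 0.44 with the antibodies against isotype, while against PBS it fell by 0.23 with rituximab and 0.19 with the combination. Of 12 targets of ATF4, the transcription factor of the integrated stress response that also induces DDIT4, 1 rose and 1 fell with isotype antibody. Of all genes, 2.17% rose and 4.32% fell with it. Against isotype 3 (GA101), 2 (rituximab) and 2 (combination) of the 12 rose, where 12.5%, 13.8% and 11.4% of all genes rose. TRIB3 fell with rituximab and with the combination. DDIT3 rose most, by 0.31, 0.33 and 0.29.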

How the data were processed

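Gene expression was measured on 75 Affymetrix arrays, 3 for each of 25 groups. The deposited intensities are linear; the authors made them with MAS5, per the submitters' processing notes, with settings and version not given in the sources used here. They share 1 mean per array, so only relative levels can be compared. Here values under 1 were set to 1 and log2 was taken. Of 54675 probe sets, 62 controls, 1801 with several symbols and 11777 with none were left out; 2 annotated to SLC2A3 together with another gene were among them. Each gene was represented by its brightest probe set, kept where its mean over the 15 arrays of at least 1 line exceeded the median of all probe sets, an intensity of 11.7 (13814 genes).

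Limma 3.58.1 (lmFit, eBayes with trend, R 4.3.3) was fitted on 25 group means, with lines weighted equally and Benjamini-Hochberg adjustment over all genes; the threshold was an adjusted p of 0.05. Members and gene lists were chosen with earlier results of these data known. Every member past the threshold was named, with array values for those of the largest changes; in single lines, members whose arrays did not overlap were described, and for levels the 8 widest ranges. The script was tested on simulated data. Alternatives were a replicate block, quantile normalization, averaging all probe sets of a gene, dropping the filter, an added offset of 16, adjustment over every probe set past the filter, and leaving out each line or array. Arrays of 1 line with the same replicate number correlated in their deviations at -0.08 to 0.12. The medians by line were 0 to 0.04, against -0.02 to 0 for arrays with different numbers. Such correlations over all genes cannot show whether replicate numbers pair the arrays. Precision is limited by the number of arrays.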

Additional observations from a re-analysis of the deposited data

Results flagged for a closer look

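The response of these genes differed between the 5 lines, by limma's moderated F test, in 33 pairs of 1 gene and 1 comparison. These were 4 of 33 genes for isotype against PBS (0.659% of all genes), 14 for GA101 against isotype (14.2%) and 15 for rituximab against isotype (11.5%). For GA101 against rituximab 0 of 33 genes differed (3.63% of all genes). For isotype against PBS the adjusted p was 0.00011 for DDIT4, 0.00036 for ANKRD37, 0.0012 for KDM3A and 0.0042 for ADM, each with its fall in GRANTA-519.

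For GA101 against isotype it was 5.3e-09 for DDIT4, 1.4e-08 for KDM3A, 8.1e-08 for ANKRD37, 1.8e-07 for HIF1A, 7.5e-07 for ADM, 3.7e-06 for P4HA1 and 2.3e-05 for VEGFA (limma). Weaker differences were HK2 at 0.00014, EGLN1 at 0.0015, BNIP3 at 0.0057, SLC2A3 at 0.014, BNIP3L at 0.015, PDK1 at 0.019 and ALDOC at 0.035. The change of DDIT4 ran from -0.38 in REC-1 to 1.75 in GRANTA-519, and that of HIF1A from -0.09 in REC-1 to 0.34 in Z138.

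For rituximab against isotype the limma adjusted p was 3.7e-10 for KDM3A, 2.1e-08 for ADM, 6.3e-08 for HIF1A, 9.5e-08 for DDIT4, 1.0e-07 for ANKRD37, 1.9e-07 for HK2, 7.9e-06 for P4HA1, 1.6e-05 for MXI1 and 5.4e-05 for VEGFA. It was 0.00017 for BNIP3, 7.0e-04 for BNIP3L, 0.00082 for EGLN1, 0.0021 for PDK1, 0.0022 for PFKFB3 and 0.032 for SLC2A1.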

How the results depend on the processing

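Of 154 calls of single members, the replicate block kept 150 on their side of the threshold, quantile normalization 122, no filter 132, the mean of probe sets 112, the offset 144 and adjustment over every probe set 136; 97 were kept by all 6. In the 75 fits that each leave out 1 array, 40 of 50 over-line calls and 57 of 104 single-line calls were never lost. The block on replicate number moved single-line calls from 1 to 2 (GA101 against rituximab), 11 to 17 (GA101 against PBS) and 11 to 17 (rituximab against PBS). It moved members whose GA101 against rituximab difference varied between lines from 0 to 3. The block changed no other count by over 1.5 times. Quantile normalization gave 3 in place of 6 for GA101 against PBS (4 in place of 7 over all probe sets) and 1 in place of 0 for GA101 against rituximab between lines. The mean of probe sets gave 0 in place of 1 single-line call for GA101 against rituximab and 4 in place of 10 for the combination against PBS, and turned PGK1 for the combination against PBS to 0.03.

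Without Z138 over-line calls were 6 for GA101 against isotype (13.6% of all genes) and 6 for rituximab against isotype (16.1%). They were 3 for GA101 against PBS (7.47%) and 3 for rituximab against PBS (10%). HIF1A for GA101 against isotype was then at -0.01. Without GRANTA-519 over-line calls were 1 for isotype against PBS (6.07% of all genes) and 5 for GA101 against isotype (16.5%). For GA101 against rituximab they were 2 (2.61%), ADM at 0.29 and VEGFA at 0.17. ADM for rituximab against isotype was then at -0.04. Leaving out 1 array gave 0 to 1 calls for GA101 against rituximab, 0 to 4 in single lines, 7 to 18 single-line calls for GA101 against PBS, 6 to 13 for the combination against PBS, and 0 to 3 members differing between lines for GA101 against rituximab. The cause of these shifts was not tested. Dim members (BNIP3 in HBL-2, SLC2A3 in REC-1, EGLN3 in GRANTA-519, ENO2 outside HBL-2, PFKFB4, NDRG1) lie near background, where signal limits what could be seen.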
